A study of Mus musculus with 16 samples.

Results

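Of the 17999 autosomal DNase hypersensitive sites (DHS) found in all 4 liver DHS lists, 827 ranked higher in the CAST list than in the B6 list of the same sex, by at least 15 percentile points in each of the 2 sexes. The enzyme DNase I cuts DNA most readily where chromatin is open, and a DHS is such an open stretch. Joining the peaks of the 4 lists wherever they overlapped, by 1 bp or more, gave 50655 regions on chromosomes 1 to 19 of mouse assembly mm9. For each region and list, the rank is the percentile, from 0 to 100, of its highest summit fold enrichment among all peaks of that list, where fold enrichment is the pileup of reads at the summit over the local background. The members were chosen by these measured values, so their enrichments, ranks and strain differences are a description and were not tested. What the rule did not use, such as position and reference sequence, is compared with all shared DHS and with the mirror set of 757 shared DHS that ranked at least 15 points higher in B6 in both sexes.

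The lists came from liver nuclei of male B6, female B6, male CAST and female CAST mice, 8 weeks old per the labels, digested with 32 units of DNase I. B6 (C57BL/6J) is the laboratory strain behind the mouse reference genome, and CAST (CAST/EiJ) is also inbred but descends from wild-caught castaneus mice. The labels name no transgene and no drug treatment. The authors pooled the 4 libraries of each group before calling DHS, so each group is 1 list, no spread between animals can be computed, and differences between animals cannot be told apart from differences between strains. The reference for mapping was mm9 for B6 libraries and, for CAST libraries, mm9 with CAST variants inserted, so strain and mapping reference also cannot be told apart. The male lists held 38751 peaks in B6 and 39562 in CAST, and the female lists held 26271 in B6 and 24888 in CAST. Read depth was not stated in the lists. The genome-wide background recovered from their scores, which follows depth, was 13.9 to 15.4 overlapping reads in 3 lists and 7.94 in the female CAST list. At the members the median summit pileup was 76 reads in B6 males, 47 in B6 females, 152 in CAST males and 59 in CAST females, so the female B6 values rest on the fewest reads there.

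DHS mark promoters, enhancers and insulators, where transcription factors bind and displace nucleosomes. In liver, distal DHS are bound by hepatocyte factors of the HNF4A, FOXA, CEBP, HNF1 and ONECUT families. STAT5, which growth hormone activates, binds many liver DHS, and the pituitary's sex-dependent rhythm of growth hormone release sets much of the difference between male and female liver chromatin. Strain differences in a shared DHS can accompany DNA variants within it or elsewhere.

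The sequences at the largest strain differences are shown first. For each of 6 members, all among the 15 with the largest difference in the sex where it was smaller, the 300 bases about the male CAST summit are given on the plus strand of mm9, which carries the B6 sequence. The CAST bases were not read here. Capitals mark matches to any of 21 transcription factor motifs searched on both strands. The 6 windows lie at chr15:81605119-81605418, chr7:148094292-148094591, chr16:42911903-42912202, chr13:29017774-29018073, chr1:135016658-135016957 and chr11:8510502-8510801, in the order shown.
Zc3h7b: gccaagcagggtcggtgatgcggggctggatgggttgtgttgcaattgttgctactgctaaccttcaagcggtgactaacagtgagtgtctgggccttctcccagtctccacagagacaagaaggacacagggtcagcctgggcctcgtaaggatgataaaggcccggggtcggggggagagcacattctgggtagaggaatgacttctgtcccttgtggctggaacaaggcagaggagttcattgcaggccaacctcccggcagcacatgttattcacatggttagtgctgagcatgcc
Cox8b: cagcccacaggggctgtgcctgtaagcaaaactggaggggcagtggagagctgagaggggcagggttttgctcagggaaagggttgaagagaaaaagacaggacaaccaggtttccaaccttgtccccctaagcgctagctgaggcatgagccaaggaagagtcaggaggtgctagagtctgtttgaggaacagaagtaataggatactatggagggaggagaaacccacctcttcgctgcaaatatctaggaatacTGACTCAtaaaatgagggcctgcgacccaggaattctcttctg
Zbtb20: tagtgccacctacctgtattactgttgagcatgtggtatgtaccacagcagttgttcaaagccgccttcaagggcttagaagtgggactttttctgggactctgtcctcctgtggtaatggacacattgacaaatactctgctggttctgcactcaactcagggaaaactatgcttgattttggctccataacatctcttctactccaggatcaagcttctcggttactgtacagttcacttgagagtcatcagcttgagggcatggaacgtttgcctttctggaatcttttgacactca
Gm17419: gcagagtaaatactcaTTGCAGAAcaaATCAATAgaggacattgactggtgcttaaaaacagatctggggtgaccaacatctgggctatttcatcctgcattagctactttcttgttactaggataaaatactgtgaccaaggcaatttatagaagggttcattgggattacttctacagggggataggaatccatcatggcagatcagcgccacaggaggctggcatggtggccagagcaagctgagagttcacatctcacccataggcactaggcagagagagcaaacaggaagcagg
Ppp1r15b: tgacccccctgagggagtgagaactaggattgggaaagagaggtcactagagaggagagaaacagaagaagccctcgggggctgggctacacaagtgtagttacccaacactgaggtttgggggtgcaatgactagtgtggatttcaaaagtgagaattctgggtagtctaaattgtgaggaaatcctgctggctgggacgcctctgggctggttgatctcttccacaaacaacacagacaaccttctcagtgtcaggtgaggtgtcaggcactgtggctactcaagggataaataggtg
Tns3: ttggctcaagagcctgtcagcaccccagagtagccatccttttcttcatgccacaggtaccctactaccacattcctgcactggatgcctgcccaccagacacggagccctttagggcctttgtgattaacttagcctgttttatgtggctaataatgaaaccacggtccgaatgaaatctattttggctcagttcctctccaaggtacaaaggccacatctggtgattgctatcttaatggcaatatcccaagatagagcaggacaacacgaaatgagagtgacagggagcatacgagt
Only the windows near Cox8b and Gm17419 held a match. The Cox8b window held an AP-1 motif (TGANTCA), and the Gm17419 window held a CEBP motif (TTGCNNAA) and a ONECUT motif (TATTGAT, read on the minus strand). The other 4 windows held none of the 21 motifs, which says only that these letters are not in these windows.

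The member with the largest difference lay in an intron of Zc3h7b, a zinc finger gene, at chr15:81604880-81605652. Its fold enrichment was 2.57 in B6 males, 2.79 in B6 females, 13.5 in CAST males and 11.4 in CAST females. Its summit pileup was 41 reads in both B6 lists, 458 reads in male CAST and 171 reads in female CAST. Divided by each list's genome-wide background, the CAST pileup was 12.03 times the B6 pileup in males (exact 95% interval 8.73 to 16.997) and 7.32 times in females (5.18 to 10.6). These intervals cover the counting of reads only, and reads were not independent molecules. Both CAST values lay above both B6 values, at the 98.7th and 98.0th percentile in CAST against the 24.8th and 33.8th in B6, with males given first.

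The other members whose windows are shown above also had low B6 and high CAST enrichment in both sexes. No window is shown for Stard4 and Mc2r, which ranked above Ppp1r15b and Tns3 by strain difference. A DHS upstream of Cox8b, which encodes a subunit of mitochondrial cytochrome c oxidase, at chr7:148093860-148094984, had a fold enrichment of 2.56 in B6 males, 2.55 in B6 females, 7.49 in CAST males and 7.11 in CAST females. An intronic DHS of Zbtb20, a transcriptional repressor abundant in liver, at chr16:42911484-42912523, had 1.97 in B6 males, 2.07 in B6 females, 5.06 in CAST males and 4.83 in CAST females. In both regions the sexes of a strain lay close together and the strains far apart. A DHS upstream of the noncoding gene Gm17419, at chr13:29017704-29018334, had 2.81 in B6 males, 2.28 in B6 females, 9.78 in CAST males and 7.45 in CAST females. The DHS near Ppp1r15b, which encodes a regulatory subunit for the dephosphorylation of eIF2alpha, at chr1:135016501-135017196, had 2.29 in B6 males, 2.36 in B6 females, 5.51 in CAST males and 6.31 in CAST females. The last of the 6, an intronic DHS of Tns3, an adhesion adaptor, at chr11:8510202-8510851, had 2.27 in B6 males, 2.28 in B6 females, 5.35 in CAST males and 5.03 in CAST females. Female values of the other 9 of the 15 lay between 2.01 and 2.68 in B6 and between 4.72 and 7.94 in CAST.

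**Figure D1:**
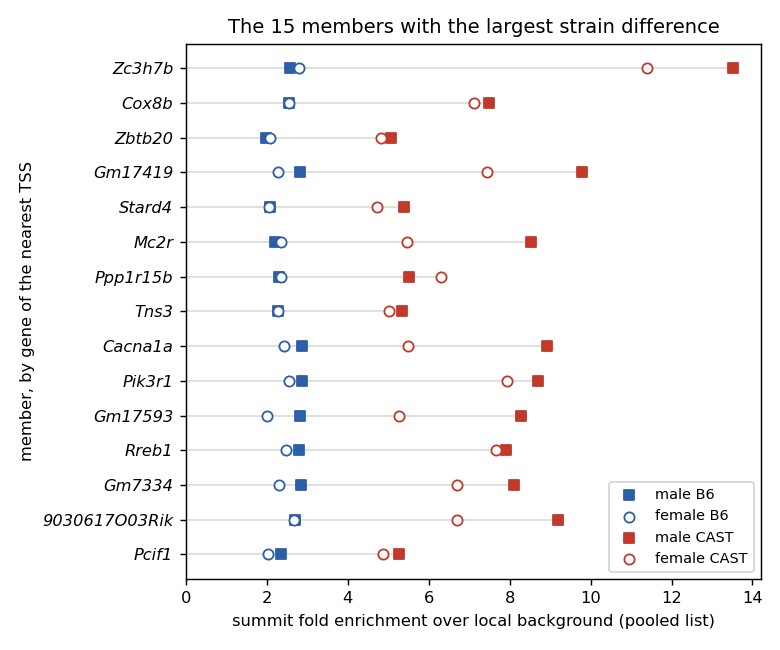
Summit fold enrichment over local background (x axis) in the 4 pooled lists for the 15 members with the largest strain difference, each named by the gene of the nearest TSS, with filled squares for male and open circles for female lists and B6 in blue and CAST in red. All B6 points lie at or below 2.87 and all CAST points at or above 4.72, which the choice of these members by strain difference fixes in part.

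The other 9 of the 15 lay at or nearest to genes of various roles. Stard4, a carrier of cholesterol between membranes, held a member in an intron with 2.07 in B6 males, 2.05 in B6 females, 5.39 in CAST males and 4.72 in CAST females. A member upstream of Pik3r1, the regulatory subunit of the kinase that acts below the insulin receptor, at chr13:102602066-102602813, had 2.87 in B6 males, 2.55 in B6 females, 8.69 in CAST males and 7.94 in CAST females. A member 174241 bp upstream of Rreb1, a zinc finger factor, had 2.80 in B6 males, 2.47 in B6 females, 7.91 in CAST males and 7.66 in CAST females. The rest of the 15 lay nearest to Mc2r, Cacna1a, Gm17593, Gm7334 (within an intron of Plcl2), 9030617O03Rik and Pcif1. The nearest TSS is a label of position and does not say which gene a DHS acts on.

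Over all 827 members, the median fold enrichment was 3.41 in B6 males, 2.68 in B6 females, 6.18 in CAST males and 4.92 in CAST females. In all shared DHS it was 5.35, 3.88, 5.80 and 4.66 in the same order. The members were thus below the shared median in B6 and slightly above it in CAST. Their median percentile was 48.3 in B6 males, 29.9 in B6 females, 77.7 in CAST males and 65.1 in CAST females. The median of the CAST to B6 ratio of fold enrichment was 1.73 in males and 1.77 in females, against 1.06 and 1.19 in all shared DHS, so relative to that general shift it was 1.63 in males and 1.49 in females. With the summit pileup over the genome-wide background in place of fold enrichment, the median ratio was 2.02 in males and 2.07 in females, against 1.046 and 1.29 in all shared DHS. By this measure 824 of the 827 members were higher in CAST in both sexes, as were 53.2% of all shared DHS. The fold enrichment ratio was at least 2 in both sexes in 128 members, and in 0.744% of all shared DHS. These values follow from the rule and are a description.

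The limit of 15 points was passed by 4.59% of the shared DHS in the CAST direction in both sexes, which are the members, and by 4.21% in the B6 direction. In males alone it was passed by 9.79% in the CAST direction, and in females alone by 13.7%. The members were 46.9% of the 1763 regions that passed in males and 33.6% of the 2463 that passed in females. Across the 17999 shared DHS the strain difference in males and that in females, which share no list, had a Pearson r of 0.457 and a Spearman rho of 0.410, as a description over regions that share libraries. Among the members, 192 differed by at least 30 points in both sexes (1.07% of all shared DHS) and 66 by at least 40 (0.367%).

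**Figure D2:**
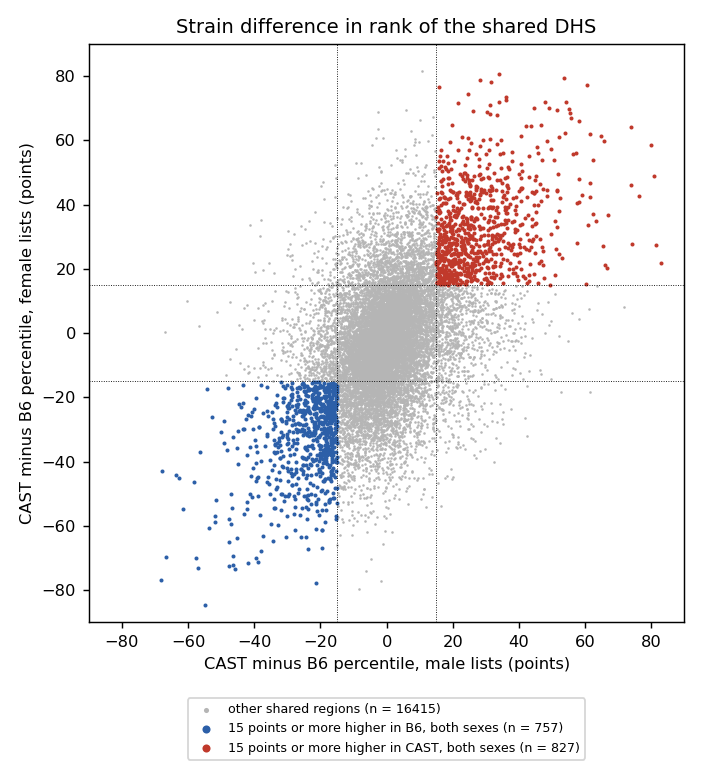
CAST minus B6 percentile of fold enrichment for each of the 17999 shared DHS, with the male lists on the x axis and the female lists on the y axis, in percentile points. Red points are the 827 members, blue points the 757 regions ranked higher in B6, and dotted lines the limit of 15 points that defines both.

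The values on either side of the limit were alike. Just inside it were DHS at Sfxn5, Timm17a and Tgfbr3. At Sfxn5 the female difference was 15.02 points and the fold enrichment was 2.92 in B6 males, 2.63 in B6 females, 4.04 in CAST males and 3.69 in CAST females. At Timm17a the female fold enrichment was 2.22 in B6 and 3.08 in CAST. At Tgfbr3 the male fold enrichment was 3.35 in B6 and 4.57 in CAST. Just outside it were DHS at Lrtm1, Aldh1l1 and Aass. At Lrtm1 the male fold enrichment was 3.67 in B6 and 5.14 in CAST. At Aass the fold enrichment was 4.60 in B6 males, 3.63 in B6 females, 6.78 in CAST males and 6.32 in CAST females.

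The members that stood highest in CAST reached the top percentiles of both CAST lists. The highest mean CAST percentile belonged to an intergenic DHS nearest to 9030619P08Rik, at chr15:75206923-75207586, with a fold enrichment of 3.49 in B6 males, 2.68 in B6 females, 13.95 in CAST males and 13.5 in CAST females. An intronic DHS of Eefsec, the elongation factor for selenocysteine, at chr6:88290689-88291540, had 4.68 in B6 males, 2.66 in B6 females, 13.7 in CAST males and 12.6 in CAST females. An intronic DHS of Wdr63 had 5.63 in B6 males, 4.22 in B6 females, 14.97 in CAST males and 11.9 in CAST females. The DHS nearest to Ccdc121 had 5.81, 3.48, 16.3 and 10.9 in the same order. In the male B6 list these 4 regions stood at the 50.0th to 78.6th percentile. In the female B6 list they stood lower, at a percentile of 29.3 near 9030619P08Rik, 28.1 at Eefsec, 69.9 at Wdr63 and 55.4 near Ccdc121. The Zc3h7b region was the fifth.

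Members were mostly distal to promoters. Of the 827, 631 (76.3%, Wilson 95% interval 73.3 to 79.1) lay more than 2.5 kb from any transcription start site (TSS), against 56.3% (52.7 to 59.8) of the DHS ranked higher in B6 and 45.6% (44.8 to 46.3) of all shared DHS. A DHS above the 85th percentile in B6 cannot gain 15 points, and strong DHS are often promoters, so the 12354 shared DHS at or below that percentile in both B6 lists are the closer comparison. In these 50.8% were distal. The median distance to a TSS was 12682 bp in members, 2783 bp in this closer comparison and 984 bp in all shared DHS. By place of the male CAST summit, 50.7% of members were intronic, 39.5% intergenic, 6.41% in untranslated or noncoding exons and 3.39% in coding exons. The corresponding shares of all shared DHS were 34.8%, 40.8%, 17.96% and 6.40%. Intervals cover counting error only, and neighbouring regions are not independent.

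The larger distal share held at each level of B6 enrichment that could be compared. At a mean B6 percentile of 20 to 40, 76.5% of 336 members were distal (71.7 to 80.7), against 60.9% (58.8 to 62.9) of the 2147 shared DHS of that level. At 40 to 60 it was 79.2% of 283 members (74.0 to 83.5) against 55.7% (54.2 to 57.2), and at 60 to 80 it was 76.0% of 96 members (66.6 to 83.5) against 45.1% (43.8 to 46.5). At 0 to 20 the shares were 68.5% of 111 members (59.3 to 76.4) and 55.5% (51.3 to 59.7), and here the intervals overlapped. The shared DHS of each level include its members.

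**Figure D3:**
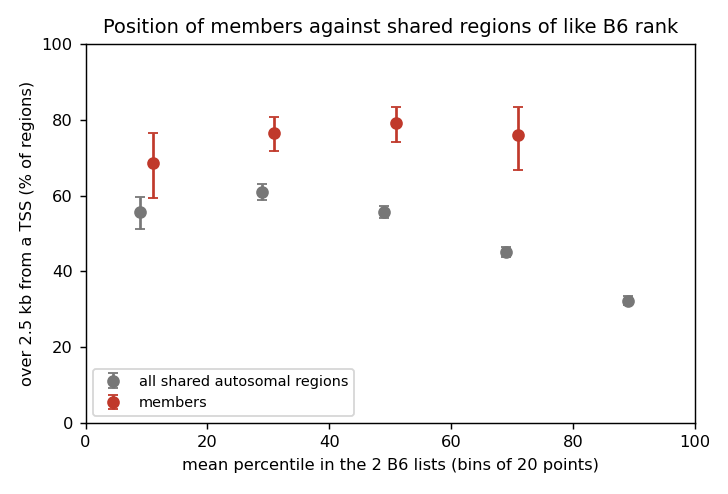
Share of regions more than 2.5 kb from a TSS, in percent (y axis), by mean percentile in the 2 B6 lists in bins of 20 points (x axis), for members (red) and all shared DHS (grey), with Wilson 95% intervals of counting error. The red points lie between 68.5% and 79.2% and above the grey point of the same bin in each of the 4 bins with members enough to plot.

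A smaller group of members lay at promoters. Of the 827, 96 (11.6%) overlapped a TSS, against 46.5% of all shared DHS. Their windows held a median of 18 CpG dinucleotides and 59.8% GC, against 26 and 65.0% in all shared DHS that overlap a TSS. The 6 with the largest strain difference, chosen after their values were seen, lay at Top1mt, Gorasp1, 4930452B06Rik, Map2k3, Nqo1 and Il15ra. At Nqo1, a quinone reductase of the oxidative stress response, at chr8:109926870-109927568, the fold enrichment was 3.81 in B6 males, 2.83 in B6 females, 8.49 in CAST males and 6.71 in CAST females. At Top1mt, the mitochondrial topoisomerase, it was 3.83 in B6 males, 3.28 in B6 females, 9.23 in CAST males and 7.36 in CAST females. At Il15ra, the receptor subunit that binds interleukin 15, it was 2.36, 3.18, 6.17 and 6.34. In these 3 promoters both CAST values exceeded both B6 values, which the choice of members by strain difference fixes in part.

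The members' sequence was less rich in GC than that of the average shared DHS. The median GC content of the 300 bases about the male CAST summit was 48.3% in members, 52.3% in DHS ranked higher in B6 and 54.3% in all shared DHS. Among distal DHS alone these medians were 47.7%, 48.3% and 47.7%. No member had a second copy in mm9 at 95% identity over 80% of its window (0 of 827, for which the limit of 3 counts is a share of 0.363% and the Wilson upper bound 0.462%), and none matched the mitochondrial chromosome. Copy number in the CAST genome was not read here. A single member stood apart by its background, the region at Sfi1, chr11:3042902-3048718, singled out after its values were seen. Its summit pileup was 1291 reads in B6 males, 1361 in B6 females, 4983 in CAST males and 2483 in CAST females, and its local background was 33.0 and 34.5 times the genome-wide background in male and female B6, and 75.8 and 73.3 times in male and female CAST. The part of this raised background in its strain difference was not tested, and a search of mm9 cannot show copies that the assembly lacks. No other member had a summit pileup above 660 reads in male CAST.

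The STAT motif (TTCNNNGAA, the core of the sites to which STAT dimers bind) was the motif of the 21 whose share differed most, in percentage points, between the distal members and the distal DHS ranked higher in B6, and it was singled out after the shares were seen. Both strands were searched in the 300 bases about the male CAST summit. A match was present in 99 of 631 distal members (15.7%, Wilson 95% interval 13.1 to 18.7), in 30 of 426 distal DHS ranked higher in B6 (7.04%, 4.98 to 9.88) and in 1018 of all 8202 distal shared DHS (12.4%, 11.7 to 13.1). The share in members was above that of the mirror set by more than the counting error of either, while its interval overlapped that of all distal DHS. Over all 827 members a match was present in 14.99%, against 9.11% of all 17999 shared DHS. The 3 free bases make the motif a loose one that overlaps other motif families, and a match is not a binding site.

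The 6 distal members below are shown because they hold this motif within 60 bases of the male CAST summit and have the largest strain differences among such members. Each line gives 41 bases of the plus strand of mm9, centred on the match, with the fixed bases of the motif in capitals. They lie at chr4:34938285-34938325, chr19:40306203-40306243, chr8:83552191-83552231, chr6:121121271-121121311, chr9:24977668-24977708 and chr12:79053589-79053629, in the order shown.
Gm12364: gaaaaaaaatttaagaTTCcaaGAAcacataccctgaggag
Pdlim1: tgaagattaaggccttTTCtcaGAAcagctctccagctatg
Usp38: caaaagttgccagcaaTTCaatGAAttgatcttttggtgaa
Pex26: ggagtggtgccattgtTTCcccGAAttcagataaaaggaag
Herpud2: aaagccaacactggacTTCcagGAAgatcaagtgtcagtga
Gm6657: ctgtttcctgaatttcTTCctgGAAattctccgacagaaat
Herpud2 and Gm6657 carried the form with C and G next to the fixed bases (TTCCNGGAA). At the Gm12364 region, within an intron of Mob3b, the fold enrichment was 3.42 in B6 males, 2.94 in B6 females, 9.64 in CAST males and 7.32 in CAST females. At the Herpud2 region it was 2.67, 2.46, 7.63 and 4.58 in the same order. In both, the CAST values exceeded the B6 values in each sex. This was so at every member, where the lowest ratio was 1.24 in males and 1.38 in females.

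The share of distal DHS with the STAT motif was higher in successive bins of strain difference from B6 towards CAST, though not at each step. The bins are cut on the strain differences that chose the members and the mirror set, by which the motif was singled out. They are therefore a description and not a separate test. It was 8.62% (6.60 to 11.2) of the 580 distal DHS whose mean strain difference over both sexes was −20 points or less, 12.1% (10.5 to 13.8) of the 1492 between 0 and 5 points, and 16.5% (14.1 to 19.2) of the 802 above 20 points. The median GC content of these bins was 47.7%, 48.0% and 47.3%. The CEBP motif (TTGCNNAA) was at 21.9%, 24.3% and 24.9% in the same bins, with overlapping intervals at the ends. The FOXA motif (TGTTTAC) was at 8.62%, 9.05% and 7.36%. Between the distal members and all distal shared DHS, the FOXA share was 6.50% (4.83 to 8.70) against 9.08% (8.48 to 9.72), and the HNF4A motif (CAAAGTCCA) was at 1.27% (0.644 to 2.48) against 2.63% (2.31 to 3.003). Of the STAT motif matches in distal members, 19.4% of 108 (13.1 to 27.9) were centred within 30 bases of the summit. The share was 23.0% of 1092 (20.6 to 25.6) in all distal shared DHS. In the distal mirror set it was 6.45% of 31 (1.79 to 20.7), and the 3 intervals overlapped.

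**Figure D4:**
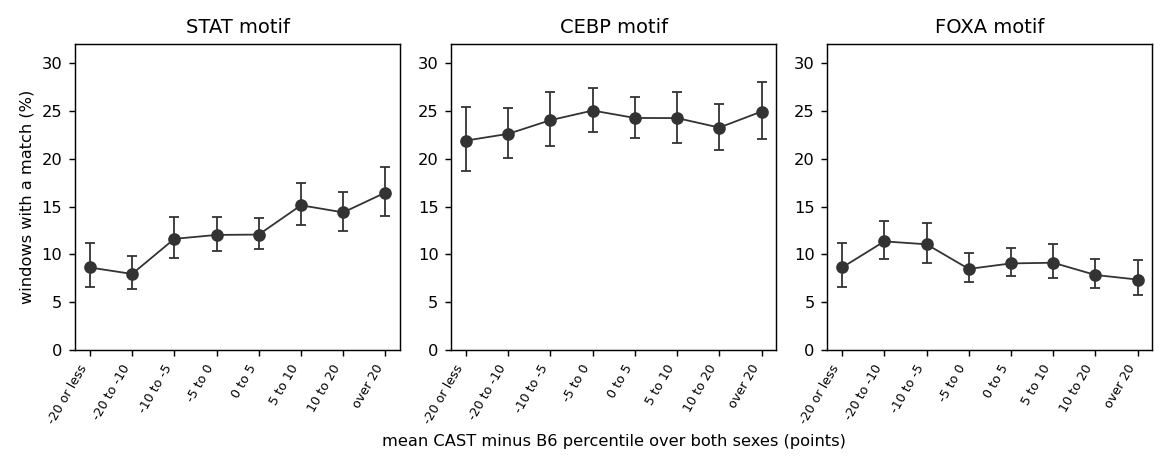
Share of promoter-distal shared DHS with a STAT, CEBP or FOXA motif in the 300 bases about the male CAST summit, in percent (y axes), by mean CAST minus B6 percentile over both sexes, in points (x axes), with Wilson 95% intervals of counting error. The STAT share goes from 8.62% at −20 points or less to 16.5% above 20 points, with lower values than the bin before it at −20 to −10 and at 10 to 20 points.

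Promoter motifs were scarce in members, which were mostly distal. The SP/KLF motif (GGGCGGGG) was in 3.63% of members and 16.4% of all shared DHS, and the ETS motif (CCGGAAGT) was in 0.605% and 4.03%. Among distal DHS these shares were 1.74% of members and 2.999% of all for SP/KLF, and 0.317% and 0.536% for ETS. The CTCF motif was in none of the 827 members (Wilson upper bound 0.462%) and in 0.411% of all shared DHS, a share that this bound includes.

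Males ranked higher than females at many members, more often in B6 than in CAST. The fold enrichment percentile was at least 15 points higher in males in B6 at 436 members (52.7%) and in CAST at 265 members (32.0%). The same limit was passed by 30.1% of all shared DHS in B6 and by 37.1% in CAST. In the mirror set the order was the reverse, with 31.8% in B6 and 59.7% in CAST, so in both sets the larger share of male-ranked DHS was in the strain with the lower enrichment. Females ranked at least 15 points higher at 21 members in B6 (2.54%, against 1.26% of all shared DHS) and at 2 members in CAST (0.242%, against 0.7%). These 4 percentiles are the values the rule used, so this is a description, and the lists of the sexes differed in size and depth.

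The difference between the sexes was in the same direction in both strains at a part of the members. Males ranked at least 15 points higher in both strains at 198 members (23.9%, Wilson 95% interval 21.2 to 27.0), against 16.9% of all shared DHS and 27.1% (24.0 to 30.4) of the mirror set. The median difference, male minus female, was 16.1 points in B6 and 9.32 points in CAST, against 7.50 and 9.73 in all shared DHS and 10.1 and 18.9 in the mirror set. In the 12354 shared DHS at or below the 85th percentile in both B6 lists it was 11.4 points in B6 and 14.2 points in CAST. Males ranked at least 15 points higher at 39.9% of these in B6, at 48.2% in CAST and at 22.9% in both strains. At an intronic DHS of Rbm20, a splicing factor of muscle, at chr19:53855058-53856659, the fold enrichment was 6.27 in B6 males, 2.48 in B6 females, 12.1 in CAST males and 10.4 in CAST females. At this region the sexes lay far apart in B6 and close together in CAST. At the DHS nearest to Gm12051 it was 4.46 in B6 males, 2.14 in B6 females, 7.14 in CAST males and 4.47 in CAST females.

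The 2 members with the widest female excess of percentile in B6 lay nearest to 9930014A18Rik and Ppp1ca. In percentile, male minus female, the first was at −49.8 points in B6 and 4.19 points in CAST, and the second at −40.4 and 4.49 points. Not all of the 21 were near 0 in CAST, since the difference near Myl3 was 40.2 points there. The DHS nearest to 9930014A18Rik, at chr15:60624742-60625289, had a fold enrichment of 2.201 in B6 males, 3.68 in B6 females, 9.02 in CAST males and 7.38 in CAST females. At the DHS by Ppp1ca, a catalytic subunit of protein phosphatase 1, it was 2.40 in B6 males, 3.63 in B6 females, 6.33 in CAST males and 5.65 in CAST females. In CAST the widest male excess was at intronic DHS of Gm16759, with 7.80 in males and 3.47 in females, and Strbp, with 6.56 in males and 3.26 in females. The widest female excess in CAST was near Kirrel3, with 3.95 in males and 5.35 in females, and near F830104G03Rik, with 5.51 in males and 7.49 in females.

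**Figure D5:**
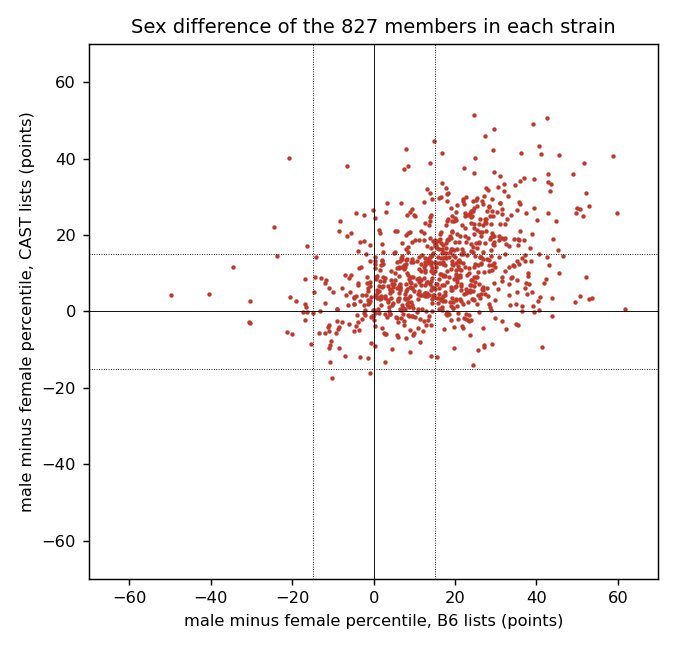
Male minus female percentile of fold enrichment for each of the 827 members, in percentile points, in the B6 lists (x axis) and the CAST lists (y axis), with dotted lines at 15 points in each direction. Most points lie right of 0, with 436 at or beyond 15 points in B6 and 265 in CAST, and 198 in both.

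Gene lists of hepatocyte identity and metabolism took shares of the members that lay above or below their shares of all shared DHS, with few members in most lists and no test. A member was counted for a gene list when its nearest TSS or an overlapping gene was on the list. A member given at a listed gene can therefore lie far from its TSS, such as 127893 bp upstream for Ahr. The core hepatocyte transcription factors had 7 members (0.846% of members, against 0.744% of all shared DHS), among them members at Hnf4a, Nfia, Nfib, Nfic and Rreb1. In an intron of Hnf4a, the nuclear receptor that maintains hepatocyte identity, at chr2:163380392-163381510, the fold enrichment was 3.63 in B6 males, 2.53 in B6 females, 6.11 in CAST males and 5.38 in CAST females. Regulators of growth hormone signalling and sex-biased expression had 5 members (0.605% against 0.572%) at or nearest to Bcl6, Id2 and Sall1. The member nearest to Sall1 was intergenic, 52997 bp upstream of its TSS.

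Lipid, cholesterol and bile acid genes had 12 members (1.45% against 1.19% of all shared DHS), among them members at Acly, Cd36, Elovl6, Fgf21, Gpam, Ppara, Ppard, Ppargc1a and Scarb1. In an intron of Ppard, a nuclear receptor for fatty acids, at chr17:28427196-28427825, the fold enrichment was 2.91 in B6 males, 2.28 in B6 females, 7.83 in CAST males and 6.34 in CAST females. In an intron of Ppargc1a, a coactivator of mitochondrial and gluconeogenic genes, at chr5:51928333-51929068, it was 3.32 in B6 males, 2.55 in B6 females, 8.74 in CAST males and 8.75 in CAST females. In an intron of Elovl6, an enzyme of fatty acid elongation, at chr3:129261184-129261921, it was 3.31 in B6 males, 2.67 in B6 females, 8.92 in CAST males and 5.51 in CAST females. At these 3 regions each CAST value was above each B6 value, which the choice of members by strain difference fixes in part. The nuclear receptor list had 3 members (0.363% against 0.450%), at Ahr, Ppara and Ppard.

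The list of plasma protein, coagulation, complement and acute phase genes had 9 members (1.09% against 0.800%) at Alb, Apcs, C9, F3, Itih3, Serpina5, Serpinb8, Serpinf1 and Ttr. A DHS 12682 bp upstream of Alb, which encodes serum albumin, at chr5:90876463-90877233, had 4.68 in B6 males, 3.57 in B6 females, 8.30 in CAST males and 9.45 in CAST females. At Serpinf1, the gene of pigment epithelium-derived factor, it was 3.86 in B6 males, 2.92 in B6 females, 8.13 in CAST males and 6.82 in CAST females. Cytochromes P450 had 5 members (0.605% against 0.506%) at Cyp2c55, Cyp2w1, Cyp39a1 and Cyp4f13, and conjugation enzymes had 1 (0.121% against 0.344%), at Gstk1. In an intron of Cyp39a1, an oxysterol hydroxylase, the values were 3.85 in B6 males, 3.01 in B6 females, 7.22 in CAST males and 6.38 in CAST females. Solute carriers and ABC transporters had 26 members (3.14% against 2.81%), among them Slc27a5, a bile acid and fatty acid ligase of liver, with 3.73 in B6 males, 2.80 in B6 females, 7.64 in CAST males and 6.11 in CAST females.

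Glucose and amino acid metabolism had 3 members (0.363% against 0.683%), among them members at G6pc and Insr. The circadian clock list had 3 (0.363% against 0.378%), all at Rora, and the zonation list had 1 (0.121% against 0.317%), at Lect2. Immediate early genes and genes of the interferon response and antigen presentation had no member, of 45 and 57 shared DHS. The markers of other liver cell types had few shared DHS, and their shares of members are read against the 4.59% of all shared DHS. Kupffer cell markers had 1 member of 6 shared DHS (16.7%), at Csf1r, and lymphocyte markers 3 of 15 (20%), all nearest to Ets1. Of these 3, only 1 lay within Ets1, in an intron. The others were intergenic, 343145 and 356193 bp from its TSS, and count only by that nearest TSS. Sinusoidal endothelial cells had none of 22, stellate cells and fibroblasts none of 8, and neutrophils and erythroid cells none of 2. The median CAST minus B6 percentile over each list's shared DHS, members included, was −7.68 points in males and −9.69 points in females for sinusoidal endothelial cells and −11.9 and −17.8 points for stellate cells and fibroblasts. It was −4.76 and −5.31 points for Kupffer cells, 4.95 and 7.46 points for lymphocytes and 8.27 and 8.29 points for neutrophils and erythroid cells, against −0.240 and −1.60 points over all shared DHS. Each list rests on few DHS, and these differences were not tested. In a bulk sample, a change in the number of cells of a type and a change of chromatin in each cell cannot be told apart, and the part of cell composition in the members was not tested.

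Several genes had more than 1 member. Prkag2, a regulatory subunit of the AMP-activated kinase that senses cellular energy, and Tns3 were the nearest gene of 4 members each, and Id2, Gm6843, Gm15527, Ets1, Elovl6, Pde3a and Eepd1 of 3 each. For Id2, a repressor of basic helix-loop-helix factors, the 3 members lay at chr12:25777271-25778342, chr12:25951655-25952677 and chr12:26066179-26066946. All were intergenic, the first 2615 bp downstream of the Id2 TSS and the others 170698 and 285222 bp upstream. Their fold enrichment in males was 2.48, 3.89 and 4.51 in B6 and 4.50, 8.24 and 8.50 in CAST. In females it was 2.44, 2.69 and 2.53 in B6 and 3.46, 4.64 and 4.40 in CAST. At all 3 the fold enrichment was higher in males in both strains, as was its median over all shared DHS. At the first region the B6 sexes were close, at 2.48 and 2.44. The excess of CAST over B6 goes with the rule that chose the members.

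Of the 827 members, 114 (13.8%, Wilson 95% interval 11.6 to 16.3) had another member within 50 kb. They formed 50 pairs and 4 runs of 3 or more, in which each member lay within 50 kb of the next. A member lay within 50 kb of 10.9% of all shared DHS and of 12.8% (10.6 to 15.4) of the mirror set, and 12.1% (10.04 to 14.5) of members had a DHS of the mirror set that near. The intervals of the members and the mirror set overlapped. The mirror set had 9.38% (7.50 to 11.7) with another of its own within 50 kb. The longest run spanned 99950 bp at chr10:95079235-95179184 near Nudt4 and Gm6843, with 4 members among 10 shared DHS. Its member at chr10:95119220-95119893 had a fold enrichment of 2.35 in B6 males, 3.17 in B6 females, 8.58 in CAST males and 8.79 in CAST females. A run of 4 members lay within Prkag2 at chr5:24414046-24507838, among 5 shared DHS. A run of 3 lay within Chn2 by Gm15527, at chr6:54201406-54240253, and a run of 3 within Pde3a, a cyclic nucleotide phosphodiesterase, at chr6:141276416-141297251. All 3 shared DHS of each of these 2 runs were members. At the last member of the Pde3a run, chr6:141296483-141297251, the fold enrichment was 4.61 in B6 males, 4.35 in B6 females, 17.4 in CAST males and 10.1 in CAST females, and the male CAST value was the highest of any member.

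DHS found in 1 strain only lay near a part of the distal members. Of the 631 distal members, 12.04% (9.73 to 14.8) had a DHS found in both CAST lists and in neither B6 list within 20 kb, against 7.75% (5.57 to 10.7) of the distal mirror set and 9.02% (8.42 to 9.66) of all distal shared DHS. The intervals of the members and the mirror set overlapped, and the difference was not tested. B6-only DHS lay within 20 kb of 8.72% (6.76 to 11.2), 10.3% (7.78 to 13.6) and 9.24% (8.63 to 9.89) of them. Members were found on all 19 autosomes, with a share of shared DHS between 3.30% on chromosome 16 and 6.51% on chromosome 18. The counting intervals of these 2 shares, 2.17 to 4.99 and 4.78 to 8.81, overlapped.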

How the data were processed

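DNase-seq was measured in 16 liver libraries, 4 for each of 4 groups, and the groups were taken from the library titles. The authors mapped reads with Bowtie2, pooled the libraries of each group and called peaks with MACS2, with CAST coordinates brought back from the variant-carrying reference to mm9, and deposited 1 list per group. The deposited fold enrichment is a ratio of summit pileup to local background, and the deposited −log10 p-value and −log10 q-value score each peak against its own list. The deposited summit offset is in bases. No column of the authors' own comparisons was used.

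Peaks were joined and ranked as described in the report. The summit pileup and the local background were recovered from p-value and fold enrichment (MACS2 adds 1 to pileup and to background), and lay within 0.02 of a whole read for 99.86% to 99.96% of peaks in each list. The lists hold no read totals, so depth was judged from this background. Distances to a TSS and gene features came from the GENCODE annotation of mm9. Windows were read from the mm9 genome with pysam 0.24.0 and near-identical copies were searched with blastn 2.17.0. Shares carry Wilson 95% intervals and pileup ratios exact 95% intervals (scipy 1.17.1), which cover counting error only. Analyses used Python 3.11.15 with pandas 2.3.3. Joining, ranking and pileup recovery were tested on simulated data. No test between groups was possible with 1 list each.

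The members, gene lists and motifs were chosen with earlier results of these data known. Members named are the 15 with the largest difference in the sex where it was smaller, the 5 with the highest mean CAST percentile, the 3 on each side of the limit, up to 3 for each gene list, genes nearest to 3 or more members, runs of 3 or more, and the 2 with the largest sex difference in each strain and direction. A member is named by its nearest TSS. Other limits on rank, overlap, peak score, list size, window and distance were tried, and their effect is given in the closing section. The X chromosome was left out of the members. Results for some genes are not reported here.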

Additional observations from a re-analysis of the deposited data

Results flagged for a closer look

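The sex difference went opposite ways in the 2 strains at a few members. At 6 members the percentile was at least 10 points higher in females in B6 and at least 10 points higher in males in CAST. At 4 members it was at least 10 points higher in males in B6 and in females in CAST. Together these were 1.21% of members, against 2.19% of all shared DHS, and the difference between the strains was not tested, since each group is 1 list.

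The first kind included an intronic DHS of Rora, the clock-linked nuclear receptor, at chr9:69171460-69172141, with a fold enrichment of 2.54 in B6 males, 2.88 in B6 females, 7.77 in CAST males and 5.50 in CAST females. It also included a DHS near Myl3, at chr9:110661059-110661846, with 2.02 in B6 males, 2.58 in B6 females, 7.73 in CAST males and 3.91 in CAST females. The second kind included an intronic DHS of Hsd11b1, the enzyme that regenerates active glucocorticoid in liver, at chr1:195056654-195057278, with 2.51 in B6 males, 2.24 in B6 females, 3.21 in CAST males and 4.10 in CAST females. Its summit pileups were 59, 39, 72 and 45 reads in the same order.

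The X chromosome, which the members leave out, held 310 DHS found in all 4 lists. Of these, 13 ranked at least 15 points higher in CAST in both sexes (4.19%) and 14 in B6 (4.52%), against 4.59% and 4.21% on the autosomes. It stands here because these regions enter no comparison of the report.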

How the results depend on the processing

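No paired analysis was possible because each group was deposited as 1 pooled list, which also leaves no replicate to drop in turn. The number of members was 1426 at a limit of 10 points, 513 at 20 points and 1262 with ranks over the shared DHS alone. The mirror set held 1535 at 10 points and 383 at 20 points. Under the other alternatives (50% overlap of both peaks, ranks by −log10 q or by summit pileup, peaks with −log10 q of at least 5, lists of equal size, exactly 1 peak per list) both counts were within 1.5 times. Of the 827 members, 708 were also members by −log10 q and 580 by summit pileup.

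The distal share was 84.3% at a promoter limit of 1 kb and 67.5% at 5 kb (all shared DHS 49.9% and 40.5%), 73.1% and 80.9% at limits of 10 and 20 points, and 81.6% by summit pileup. The median fold enrichment ratio was 1.56 and 1.87 in males and 1.67 and 1.89 in females at 10 and 20 points, and 2.02 and 2.07 by pileup over the genome-wide background. Members higher in males in CAST numbered 400 at 10 points and 170 at 20 points. Members higher in females numbered 41 and 12 in B6, and 12 and 0 in CAST, at 10 and 20 points, and 1 in CAST by −log10 q and 1 by summit pileup. Another member lay within 10 kb of 3.39% and within 100 kb of 20.6%.

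Alternatives for the STAT motif were chosen after seeing the data. Its share of distal members was 8.24% in 150 bases (mirror set 3.76%, all distal DHS 6.29%) and 8.72% for the forms with C or T and G or A inside the fixed bases (3.52% and 6.77%). It was 14.7% about the male B6 summit (7.28% and 11.2%) and 14.99% to 17.1% under the other alternatives. By the genome-wide background, depth was lowest in the female CAST list, at 7.94 reads against 13.9 in the female B6 list.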
